A study of Mus musculus with 43 samples.

Results

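Expression of 6 enzymes of sterol synthesis (Hmgcs1, Idi1, Fdft1, Sqle, Lss and Cyp51) and of the sterol sensor partner Insig1 was described across the tissues, diets and genotypes of a mouse study of dietary restriction (DR) and of the loss of IRS1, an adaptor protein of the insulin receptor. The members were the rows of the deposited expression table that carry these 7 gene symbols, and each symbol had 1 row of its own among 42349 rows. None of the 7 encodes an LDL receptor or another uptake protein, so they are referred to here as the sterol synthesis genes and Insig1. The samples were liver, brain, skeletal muscle and inguinal fat (white adipose tissue, WAT) of female mice aged 15 months. The mice were wild type (WT, Irs1+/+) or carried a global knockout (KO, Irs1-/-). They were fed ad libitum (AL) throughout or were restricted, with intake lowered in weekly steps from 10 weeks of age and then held at a DR of 30% (given as 12 months), and with the daily DR ration given late in the afternoon. Both genotypes on both diets in 4 tissues gave 16 groups, which held 2 or 3 libraries each and 43 in all. WT AL had 2 libraries in every tissue, and the labels also list 2 for WT DR in WAT. Poly-A RNA was sequenced on an Ion Proton instrument.

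Cholesterol is built from acetyl-CoA through mevalonate. HMG-CoA synthase (Hmgcs1) makes the precursor of mevalonate, isopentenyl diphosphate isomerase (Idi1) interconverts the isoprenoid building blocks, squalene synthase (Fdft1) makes squalene, squalene epoxidase (Sqle) oxidises it, lanosterol synthase (Lss) closes the rings, and lanosterol demethylase (Cyp51) starts the trimming of lanosterol. These enzymes are classical targets of SREBP2, a transcription factor that is held in the endoplasmic reticulum with its escort SCAP when sterols are plentiful and released to the nucleus when they are scarce. Insig1 encodes the protein that holds SCAP back and is itself an SREBP target, and in liver it is also known to follow insulin.

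Each value is the FPKM (fragments per kilobase of transcript, scaled to the number of mapped fragments) that the authors' software gave to a whole group, with a 95% interval. No value per library was used here, so the spread between mice is not shown, the depth per library is unknown, and the interval is the only error. An FPKM of 1 or more was reached by 12989 to 15181 entries, depending on the group. A difference is a log2 ratio of 2 group values without a pseudocount. Its standard error (SE) came from the intervals. The test was Wald's, two-sided, and its p-values were adjusted for all entries tested in that comparison (Benjamini-Hochberg). A test by exchange of samples would need a value per library and was not possible. Differences with an adjusted p under an FDR of 10% are called significant. Irs1 itself was not lower in most groups labelled KO. Its FPKM was higher in the group labelled KO than in the WT group on the same diet in liver, skeletal muscle and brain under both diets and in WAT under AL (5.37 against 2.47), and lower only in WAT under DR (2.58 against 6.56). In brain under DR the intervals of KO (4.14, interval 2.41 to 5.87) and WT (1.62, interval 1.03 to 2.21) did not overlap. What transcript the knockout allele still makes is not given in the sources used here, and directions below are those of the groups as labelled.

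Each tissue showed the markers of its label. The 8 hepatocyte markers summed to 60156 FPKM in liver of WT AL mice and to between 122098 and 146894 in the other liver groups, with none at 0. The 8 muscle markers summed to between 87544 and 130002 FPKM in skeletal muscle, the 6 neuron markers to between 1173 and 1498 in brain, and the 8 adipocyte markers to between 16454 and 28665 in WAT. Some groups also carried markers of other cells. Hepatocyte markers summed to 2644 FPKM in muscle of WT DR mice, against 51.0 to 253 in the other muscle groups, and adipocyte markers were lowest in that group (631 against 1861 to 2807). The 6 oligodendrocyte markers summed to 2162 FPKM in brain of WT DR mice and to at least 5160 in the other brain groups. The 6 epithelial markers summed to 463 and 114 FPKM in WAT of KO AL and KO DR mice, against 19.4 in WT AL and 28.4 in WT DR. Cldn3 alone gave 337 of the 463 in KO AL, and Csn3 was at 0 there. The 8 muscle markers summed to between 353 and 803 FPKM in WAT, but 7 of them were lowest in WT AL: Tnni2 had 1.54 FPKM there, against 29.6 in WT DR, 92.3 in KO AL and 50.2 in KO DR, and Actn3 had 1.46 against 32.3, 33.2 and 23.2. The exception was Acta1, with 507 FPKM in WT AL and 112 to 337 in the others. Of the 8 hepatocyte markers in WAT, 7 were lowest in KO DR (Alb 28.5 FPKM, against 192 to 204), and Cyp2e1 was highest there. The 4 immune markers with an entry of their own, of 6 listed, summed to 584 FPKM in WAT of WT AL mice and to between 296 and 352 in the other WAT groups. Most of each sum was H2-Aa (512 FPKM in WT AL, 253 to 301 in the others). Cd79a and Cd79b were instead higher in KO AL (10.8 and 16.9) and KO DR (8.22 and 16.6) than in WT AL (6.36 and 15.6). The 4 astrocyte markers summed to between 947 and 1727 FPKM in brain. The 5 red blood cell markers were higher in both KO groups than in both WT groups in liver (12047 and 13569 against 2681 and 3469), skeletal muscle and brain. In WAT they were instead higher under DR than under AL in both genotypes (6863 in WT AL and 12269 in WT DR, 4297 in KO AL and 21030 in KO DR). In bulk tissue, fewer cells of a type and less RNA per cell cannot be told apart.

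The 7 genes lie on 5 chromosomes of GRCm38, the build of the table. Hmgcs1 and Idi1 are both on chromosome 13, at chr13:119690462-119708086 and chr13:8885501-8892451. Cyp51 and Insig1 are both on chromosome 5, at chr5:4081145-4104746 and chr5:28071363-28078662. Fdft1 is given at chr14:63122462-63177793, Sqle at chr15:59315077-59331192 and Lss at chr10:76531588-76562226. The Fdft1 entry starts before the annotated gene (chr14:63145150-63179578), and the Lss entry ends after it (chr10:76531588-76557138). RefSeq promoter windows around the transcription start (GRCm38.p6) were held for Hmgcs1, Idi1, Lss, Cyp51 and Insig1, 5 of the 7. They were searched on both strands for the sterol regulatory element (TCACNCCAC, or the looser CACNCCAC that it contains), the NF-Y box CCAAT, the Sp1 box GGGCGG and the E-box CACGTG. TCACNCCAC was found in the window of Hmgcs1 and in 1.24% of all 32851 windows. CACNCCAC was found in the windows of Hmgcs1 and Insig1 and in 6.24% of all. CCAAT and GGGCGG were each found in all 5 windows and in 37.4% and 35.7% of all windows, and CACGTG was found in that of Insig1 and in 7.15% of all. Matches are letters, not bound sites, and their absence from a window says nothing of the factor. For 4 of the 5 genes with a window, those with a match there, a stretch of 150 bases just upstream of the annotated transcripts is shown 5′ to 3′ on the strand of the gene. Matches are in capitals, in Hmgcs1 the strict sterol element, an Sp1 box on each strand (CCGCCC where it is on the opposite strand) and an NF-Y box that reads ATTGG.
Hmgcs1 (chr13:119690201-119690350, plus strand): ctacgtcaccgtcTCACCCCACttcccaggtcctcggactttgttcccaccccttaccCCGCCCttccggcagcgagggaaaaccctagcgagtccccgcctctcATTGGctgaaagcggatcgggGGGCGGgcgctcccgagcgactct
Lss (chr10:76531438-76531587, plus strand): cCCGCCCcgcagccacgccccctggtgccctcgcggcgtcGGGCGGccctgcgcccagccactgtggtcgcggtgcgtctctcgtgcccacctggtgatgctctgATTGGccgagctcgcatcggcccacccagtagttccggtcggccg
Cyp51 (chr5:4104747-4104896, minus strand): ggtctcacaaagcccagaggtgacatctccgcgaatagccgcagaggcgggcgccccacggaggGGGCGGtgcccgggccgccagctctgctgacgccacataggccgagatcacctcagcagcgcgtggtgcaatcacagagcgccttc
Insig1 (chr5:28071213-28071362, plus strand): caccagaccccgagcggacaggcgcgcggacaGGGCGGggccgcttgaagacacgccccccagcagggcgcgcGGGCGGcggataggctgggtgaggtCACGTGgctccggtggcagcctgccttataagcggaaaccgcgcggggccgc
The stretch of Lss holds 2 Sp1 boxes and an NF-Y box, that of Cyp51 an Sp1 box, and that of Insig1 2 Sp1 boxes and the E-box. The looser sterol element of Insig1 lies 9 to 2 bases before the RefSeq start, inside an annotated transcript, and is not shown. The corresponding stretch of Idi1, 145 bases, held no match and is not shown either. The Sp1 and NF-Y boxes of Idi1 lie after its first annotated transcript start.

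In liver, all 7 genes had higher values under DR than under AL, in WT and in KO mice, and in KO mice Idi1, Cyp51 and Insig1 were significantly up-regulated. Hmgcs1 had an FPKM of 39.2 (95% interval 17.1 to 61.4) in WT AL, 62.7 (22.2 to 103) in WT DR, 32.3 (17.7 to 46.9) in KO AL and 56.9 (29.6 to 84.2) in KO DR. Both DR values lay above both AL values, but the intervals overlapped. Idi1 had 8.07 (2.77 to 13.4), 21.5 (5.59 to 37.3), 6.35 (3.07 to 9.63) and 26.9 (13.5 to 40.3) in the same order. For Idi1 the KO DR interval lay wholly above that of KO AL. Fdft1 had 13.1, 36.3, 16.2 and 34.6, with intervals that all reached 0. Differences in Fdft1 are therefore the least certain of the set. Sqle had 8.09 (2.39 to 13.8), 14.9 (1.11 to 28.6), 5.69 (2.78 to 8.60) and 13.8 (6.44 to 21.1). Lss had 9.79, 14.0, 8.95 and 17.8, again with intervals that all reached 0. WT DR was the highest group for Hmgcs1, Fdft1, Sqle and Cyp51, whereas KO DR was the highest for Idi1, Lss and Insig1. Cyp51 had 14.1 (5.73 to 22.4), 39.3 (7.25 to 71.3), 12.7 (7.27 to 18.1) and 38.0 (20.4 to 55.7). The 2 AL values of Cyp51 were close, and so were the 2 DR values. Insig1 had 37.5 (16.3 to 58.7), 56.7 (28.2 to 85.3), 19.9 (15.1 to 24.8) and 79.4 (58.3 to 101). It was the gene with the lowest value in KO AL relative to WT AL.

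**Figure D1:**
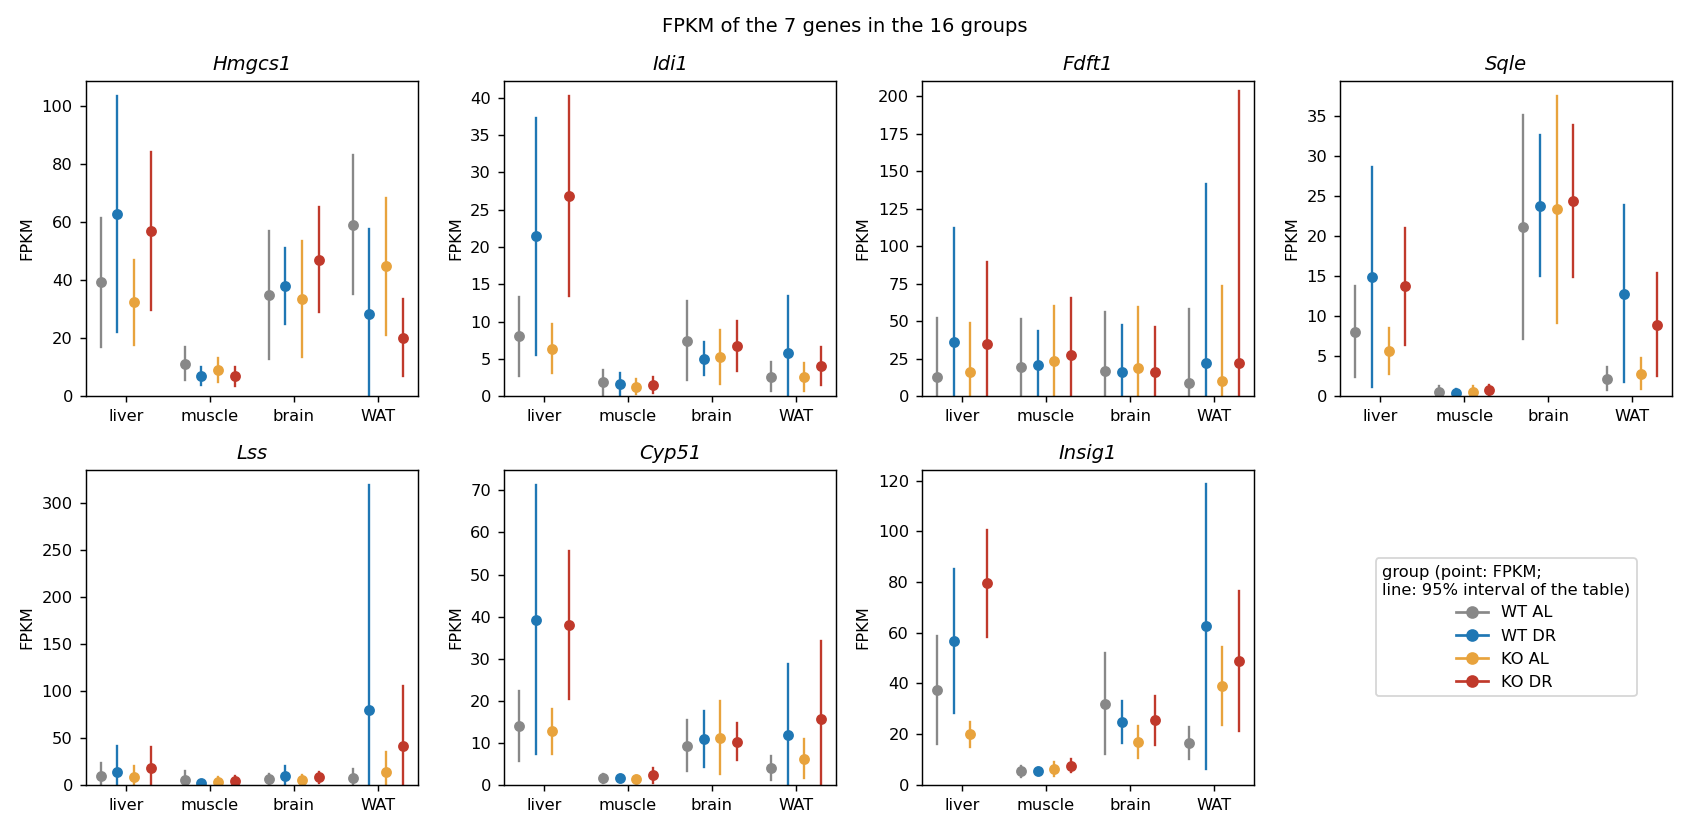
FPKM (vertical axis, linear, each gene on its own scale) of the 7 genes in the 16 groups; points are the group values and lines the 95% intervals of the table. In liver the 2 DR groups sit above the 2 AL groups for all 7 genes, skeletal muscle is lowest for all but Fdft1, and the intervals of Fdft1 reach 0 in 16 groups and those of Lss in 13.

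Within KO liver, DR was associated with a 3.98-fold higher Insig1 (log2 difference 1.99 ± 0.26 SE, adjusted p of 1.13e-11, Wald test), a 4.23-fold higher Idi1 (2.08 ± 0.52, adjusted p of 0.0132) and a 2.99-fold higher Cyp51 (1.58 ± 0.45, adjusted p of 0.0822). The other 4 members had log2 differences of 1.28 ± 0.53 (Sqle), 1.10 ± 1.85 (Fdft1), 0.99 ± 1.26 (Lss) and 0.82 ± 0.48 (Hmgcs1) and did not pass. The 3 of 7 members called stand beside 84 of 13747 entries called in this comparison (0.611%), and the members' median was 1.28 beside -0.03 over all entries tested. With a t distribution set by the number of libraries 9 of 13747 entries were called (0.0655%). None of the 3 passed then (adjusted p of 0.864 for Insig1, over a range from 2.63e-37 to 0.864 across alternatives). Cyp51 was also lost without the minimum FPKM (adjusted p of 0.114, range 2.74e-07 to 1.000) and at an FDR of 5%.

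Within WT liver, the differences had the same sign for all 7 members, but none was significant, and 2 had an unadjusted p under 0.05. The largest were those of Cyp51 (1.48 ± 0.73, 2.79-fold), Fdft1 (1.47 ± 2.63) and Idi1 (1.41 ± 0.71, 2.66-fold), followed by Sqle (0.88 ± 0.84), Hmgcs1 (0.68 ± 0.62), Insig1 (0.60 ± 0.55) and Lss (0.52 ± 1.75). Their median was 0.88, beside 0.03 over all entries, of which 0.236% were called. The comparisons in WT and KO mice share no group. The hepatocyte markers were lower in WT AL than in the other liver groups, and whether this bears on differences against WT AL was not tested. Between KO AL and KO DR the same sums were 122098 and 146894.

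**Figure D2:**
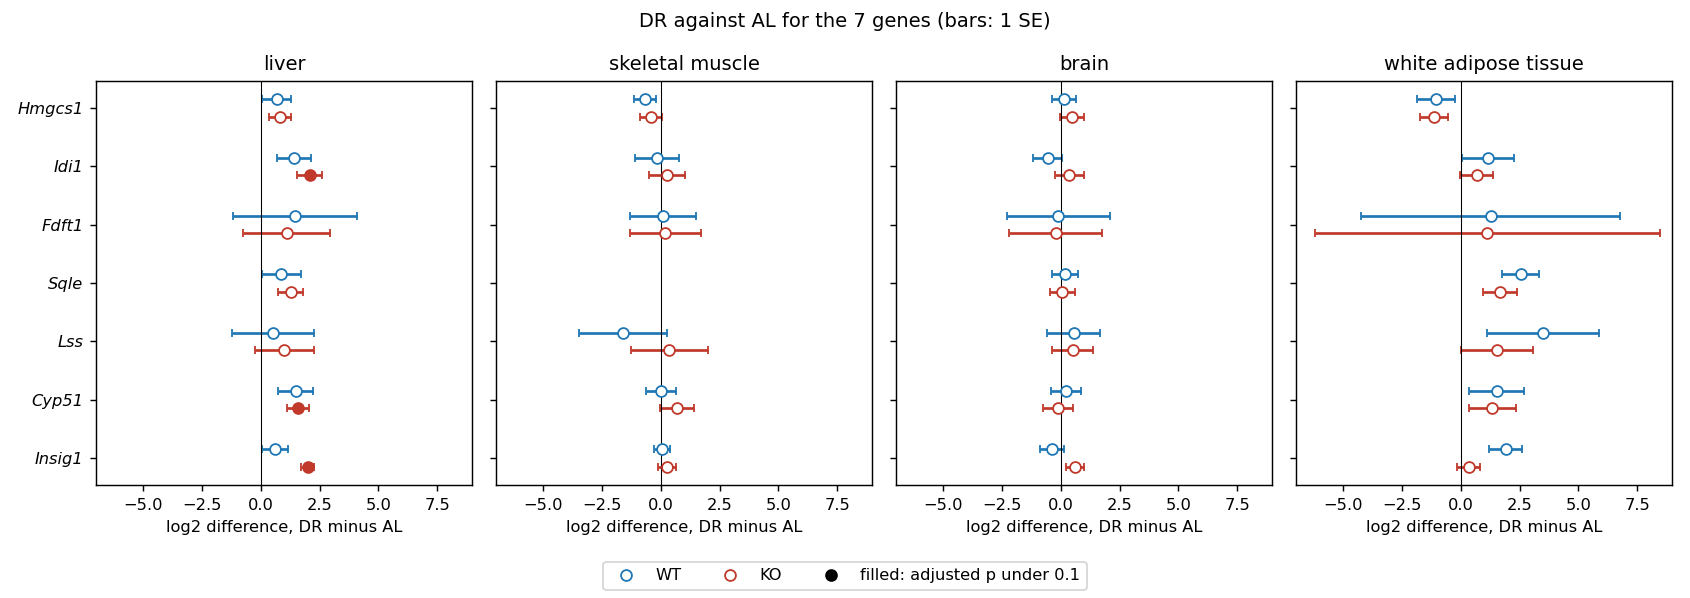
Log2 difference of FPKM, DR minus AL (horizontal axis), for each gene and tissue in WT (blue) and KO (red) mice; bars are 1 SE and filled points have an adjusted p under 0.1. All 14 liver points lie above 0, the filled ones being Idi1, Cyp51 and Insig1 in KO mice. Hmgcs1 lies below 0 in WAT and in muscle in both genotypes, and Sqle is not shown in muscle, where it did not reach an FPKM of 1.

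Genotype by itself separated the members less. Under AL, 6 of 7 members had lower values in KO than in WT liver and none was significant (0.316% of all entries were called), with 1 unadjusted p under 0.05, that of Insig1 (-0.91 ± 0.44, Wald test). The members' median was -0.28 beside 0.16 over all entries. Under DR the median was -0.05, 3 members were higher and 4 lower in KO, none was significant (0.288% called) and none had an unadjusted p under 0.05. The interaction, or the diet effect in KO less that in WT mice, was positive for 6 of 7 members, was largest for Insig1 (1.39 ± 0.61, adjusted p of 1.000, Wald test, with the one unadjusted p under 0.05) and was significant for none (0.086% called). The diet effect was thus not shown to differ between genotypes.

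Between the 2 single interventions in liver, KO AL had lower values than WT DR for all 7 members. Insig1 was significantly lower (-1.51 ± 0.40, adjusted p of 0.0294, Wald test), and Idi1 (-1.76 ± 0.65) and Cyp51 (-1.63 ± 0.66) had unadjusted p under 0.05 without passing. This was 1 of 7 members called, beside 0.89% of all entries, and the median was -1.39 beside 0.12. With a t distribution Insig1 was not called (adjusted p of 1.000, range over alternatives 1.56e-08 to 1.000), and 0.0803% of all entries were. This comparison shares KO AL with that of KO DR against KO AL, and WT DR with that of WT DR against WT AL.

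In WAT, 6 of 7 genes had higher values under DR in both genotypes and Hmgcs1 had lower ones, with no member significant. Sqle had an FPKM of 2.19 (0.751 to 3.63) in WT AL, 12.8 (1.74 to 23.9) in WT DR, 2.82 (0.848 to 4.79) in KO AL and 8.97 (2.57 to 15.4) in KO DR. The DR values of Sqle were several times those under AL, but the intervals still overlapped. Lss had 7.09, 79.9, 14.2 and 41.1, with intervals that all reached 0 and one, in WT DR, that extended to 320. Cyp51 had 4.10 (1.27 to 6.93), 11.8 (0 to 28.8), 6.22 (1.61 to 10.8) and 15.7 (0 to 34.3). The lower bound of Cyp51 was 0 in both DR groups. Idi1 had 2.60 (0.655 to 4.55), 5.74 (0 to 13.4), 2.52 (0.651 to 4.40) and 4.03 (1.52 to 6.54), and Fdft1 had 9.12, 21.9, 10.2 and 22.3. Insig1 had 16.7 (10.3 to 23.0), 62.5 (6.43 to 118), 38.9 (23.6 to 54.2) and 49.0 (21.4 to 76.6). WT AL was the lowest group for Insig1, and the other 3 groups overlapped one another. Hmgcs1 had 59.0 (35.0 to 83.0), 28.2 (0 to 57.4), 44.7 (21.2 to 68.1) and 20.1 (7.0 to 33.3). The first enzyme of the set thus had its highest value under AL, the reverse of the order of the enzymes downstream of it.

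Expressed as log2 differences in WT WAT, Lss differed by 3.49 ± 2.38, Sqle by 2.55 ± 0.78 (adjusted p of 0.166, Wald test), Insig1 by 1.91 ± 0.70, Cyp51 by 1.52 ± 1.16, Fdft1 by 1.26 ± 5.51, Idi1 by 1.14 ± 1.11 and Hmgcs1 by -1.06 ± 0.80. None was significant, 2 had an unadjusted p under 0.05, and 0.57% of all entries were called. The median was 1.52 beside -0.17 over all entries. In KO WAT the range was from -1.15 ± 0.60 (Hmgcs1) to 1.67 ± 0.72 (Sqle), the median was 1.13 beside 0.01, none was significant with 1 unadjusted p under 0.05, and 0.707% of all entries were called. Insig1 differed by 0.33 ± 0.50 in KO WAT. Centring on the median of all entries brought Sqle in WT WAT past the threshold (adjusted p of 0.0927, range over alternatives from 6.19e-04 to 1.000).

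For genotype in WAT, Insig1 was 2.33-fold higher in KO AL than in WT AL (1.22 ± 0.40). Its intervals did not overlap there, and its adjusted p was 0.132 in the Wald test. It was the only 1 of 7 members with an unadjusted p under 0.05 in a comparison in which 0 members and 1.29% of entries were called, and it passed when centred on the median (adjusted p of 0.0883, range over alternatives 1.08e-04 to 1.000). No member was significant or had an unadjusted p under 0.05 between KO DR and WT DR (0.283% of entries called). Between KO AL and WT DR no member was significant and 1, Sqle (-2.18 ± 0.80), had an unadjusted p under 0.05 (0.642% called). In the interaction none was significant or had an unadjusted p under 0.05 (0.121% called), although all 7 differences were below 0, the largest in size being those of Lss (-1.96 ± 2.84) and Insig1 (-1.57 ± 0.86). In WAT the summed epithelial markers were higher in both KO groups and the summed adipocyte markers were lowest in KO AL. Among the adipocyte markers, Cidec (1529 FPKM) and Lep (158) were instead lowest in WT DR. Red blood cell markers were higher under DR in both genotypes, and most muscle markers were lowest in WT AL. The part of any of these in the WAT values was not tested.

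Skeletal muscle and brain showed no significant difference in any member. In muscle Hmgcs1 had an FPKM of 11.2 in WT AL, 6.98 in WT DR, 9.14 in KO AL and 6.79 in KO DR, and Insig1 had 5.31, 5.52, 6.27 and 7.61. The groups overlapped for both genes. Idi1 ranged from 1.28 to 1.86, Cyp51 from 1.39 to 2.25, Lss from 1.62 to 4.93 and Fdft1 from 19.5 to 27.3. Sqle lay between 0.437 and 0.724 and was not tested within muscle, which leaves 6 members. Of these, none was significant and none had an unadjusted p under 0.05 in KO AL against WT AL (0.681% of entries called), WT DR against WT AL (1.4%), KO DR against WT DR (2.23%), KO DR against KO AL (0.5%), KO AL against WT DR (1.89%) or the interaction (0.371%). The median for DR against AL was -0.08 in WT and 0.28 in KO mice. Muscle of WT DR mice held liver transcripts: the median of its 8 hepatocyte markers was 1.77% of their level in liver of the same group. That share of the liver level would be 0.263 FPKM of the 0.437 measured for Sqle and 0.694 of the 1.53 for Cyp51, the largest parts among the 7 genes. It would be 0.379 of 1.65 for Idi1, 1.00 of 5.52 for Insig1, 1.11 of 6.98 for Hmgcs1, 0.248 of 1.62 for Lss and 0.641 of 21.1 for Fdft1. Adipocyte markers in muscle summed to 1861 FPKM in WT AL, 631 in WT DR, 2077 in KO AL and 2807 in KO DR. In WAT the same sums were 24612, 28665, 16454 and 21072. No such share was worked out for WAT, and the part of fat cells in the muscle values of the 7 genes was not tested.

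In brain Sqle had the highest level of any tissue and spanned the narrowest range of the 7 genes there, with 21.2 in WT AL, 23.9 in WT DR, 23.4 in KO AL and 24.4 in KO DR. Insig1 had 32.0 (12.1 to 52.0), 24.7 (16.4 to 33.1), 17.0 (10.7 to 23.2) and 25.5 (15.9 to 35.2). The lowest value of Insig1 was again in KO AL, as in liver, with overlapping intervals. Hmgcs1 ranged from 33.5 to 47.0, Fdft1 from 15.9 to 19.1, Cyp51 from 9.32 to 11.2, Lss from 5.59 to 8.97 and Idi1 from 5.06 to 7.44. None of the 7 was significant or had an unadjusted p under 0.05 in KO AL against WT AL (0.203% of entries called), WT DR against WT AL (0.224%), KO DR against WT DR (1.16%), KO DR against KO AL (0.365%), KO AL against WT DR (0.577%) or the interaction (0.396%). The median for DR against AL was 0.13 in WT and 0.37 in KO mice. Markers of myelinating cells were lower in WT DR brain than in the other brain groups, and their part in these values was not tested.

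Because all 7 genes had higher values under DR in liver and not in muscle or brain, the diet effects were compared directly between tissues in a test added after the values had been seen. No member's diet effect differed significantly between liver and another tissue. In KO mice the liver effect exceeded that in muscle for all 7 members (0.102% of entries called, 2 members at an unadjusted p under 0.05), with the smallest adjusted p for Insig1 (1.71 ± 0.47, adjusted p of 0.200, Wald test). It exceeded that in brain for all 7 (0.106% called, 3 at an unadjusted p under 0.05), with 1.40 ± 0.46 for Insig1 and 1.71 ± 0.80 for Idi1. Against WAT it was higher for 4 and lower for 3 (0.173% called, 2 at an unadjusted p under 0.05), and these 2 were Hmgcs1 (1.97 ± 0.77), whose diet differences had opposite signs in the 2 tissues, and Insig1 (1.66 ± 0.56). In WT mice the liver effect exceeded that in muscle for all 7 members (0.18% called, 0 at an unadjusted p under 0.05), that in brain for 6 (0.0273% called, 1 at an unadjusted p under 0.05) and that in WAT for 3 (0.0531% called, 0 at an unadjusted p under 0.05).

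Levels were also compared between the tissues of WT AL mice, and most of the significant differences involved skeletal muscle. Of the members, 5 of 7 were significantly higher in liver than in skeletal muscle, beside 20.7% of all entries called: Sqle (8.09 against 0.515 FPKM, log2 difference 3.98 ± 1.21, adjusted p of 0.00887 in the Wald test), Cyp51 (3.21 ± 0.66), Insig1 (2.82 ± 0.50), Idi1 (2.12 ± 0.82) and Hmgcs1 (1.81 ± 0.55). The same 5 genes were significantly lower in muscle than in brain (24.8% of entries called), from -1.64 ± 0.58 for Hmgcs1 to -5.36 ± 1.20 for Sqle. Against WAT, muscle was significantly lower for 2 members (24.1% called), Hmgcs1 (-2.40 ± 0.47) and Insig1 (-1.65 ± 0.39). Liver exceeded WAT significantly for 3 members (20.6% called), namely Sqle (1.88 ± 0.69), Cyp51 (1.78 ± 0.66) and Insig1 (1.17 ± 0.49). Brain exceeded WAT for 1 member (26.9% called), Sqle (3.27 ± 0.67). Liver and brain differed significantly in no member (21.8% called), with 1 unadjusted p under 0.05, that of Sqle (-1.39 ± 0.70). With a t distribution no member passed in any of the 6 pairs of tissues, but neither did any other entry, so that setting tells nothing particular of the members. With intervals that do not overlap as the rule, none was called between liver and WAT (16.6% of entries called). Between muscle and brain (16.1%) 3 were called, Sqle, Cyp51 and Insig1. Fdft1 was the 1 enzyme with no low value in muscle (19.5 FPKM, beside 13.1 in liver, 17.1 in brain and 9.12 in WAT). Over the 16 groups, values spanned 55.8-fold for Sqle, 49.4-fold for Lss, 28.2-fold for Cyp51, 21.0-fold for Idi1, 14.9-fold for Insig1, 9.24-fold for Hmgcs1 and 3.98-fold for Fdft1. The highest group was WT DR liver for Hmgcs1, Fdft1 and Cyp51, KO DR liver for Idi1 and Insig1, KO DR brain for Sqle, and WT DR WAT for Lss.

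The members' patterns were compared after each gene's log2 FPKM had been centred within each tissue. Over the 16 groups, which share libraries and scaling across genes, the 15 pairs without Hmgcs1 had Pearson's r between 0.60 and 0.95 (median 0.80), with Fdft1 and Cyp51 the most alike. The 6 pairs with Hmgcs1 had r between -0.36 and 0.17. These are descriptions over 16 group values, and the reads of Fdft1 are uncertain for the reason given next.

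**Figure D3:**
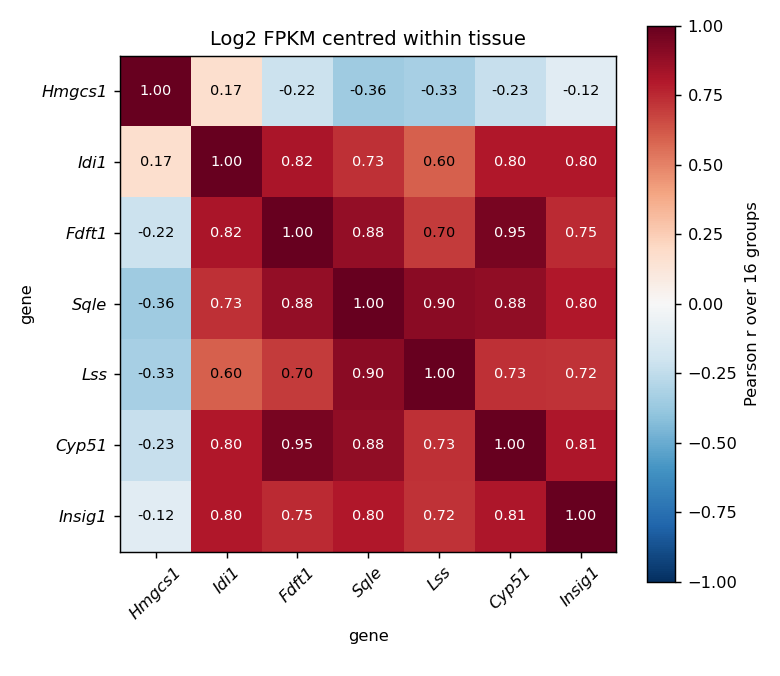
Pearson's r over 16 groups between the 7 genes (both axes), from log2 FPKM centred within each tissue; the colour and the printed number give r. Pairs without Hmgcs1 lie between 0.60 and 0.95 and pairs with Hmgcs1 between -0.36 and 0.17.

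Among 9380 other entries with an FPKM of at least 1 in all groups, the 10 most like the mean of the 7 members were, in order, Gm3571 (r = 0.92), Fdps (0.91), Msmo1 (0.91), Gm6781 (0.90), Nsdhl (0.90), the joined entry of Mir6922 and Srebf1 (0.89), Slc5a6 (0.89), Gm6166 (0.89), Pmvk (0.87) and Mrps15 (0.87). Fdps (farnesyl diphosphate synthase), Msmo1 and Nsdhl (which remove the methyl groups of lanosterol) and Pmvk (phosphomevalonate kinase) are themselves sterol enzymes, and Srebf1 encodes SREBP1. Slc5a6 encodes a vitamin transporter and Mrps15 a mitochondrial ribosomal protein. Msmo1 had an FPKM of 88.4 in WT AL, 230 in WT DR, 62.6 in KO AL and 239 in KO DR liver and 10.99, 51.4, 17.3 and 56.6 in WAT. Fdps had 10.2, 61.1, 11.9 and 46.0 in liver and 9.42, 48.8, 9.51 and 27.9 in WAT. With ranks in place of values 6 of the 10 were kept, and without centring 1 was.

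Some of these entries share sequence, so that the division of reads between them is uncertain. Gm3571 is 98.9% identical to Fdps over 1062 bases of annotated transcript, and Gm6781, a processed pseudogene, is 97.4% identical to Fdft1 over 1249 bases. Gm6781 had an FPKM of 18.1, 37.8, 17.5 and 37.2 in liver and 10.5, 39.1, 9.44 and 25.1 in WAT. Its liver values lay near those of Fdft1, and in WAT of WT DR mice it was higher (39.1 against 21.9). Fdft1 also shares 774 bases with Ctsb on the opposite strand, and whether the counting used strand is not given in the sources used here. Idi1 is identical over 684 bases to the processed pseudogene Gm13502, which had 16.8, 30.0, 15.4 and 39.2 in liver and 5.02, 18.5, 5.69 and 8.40 in WAT, in each case above Idi1 itself. In liver the pseudogene entry and Idi1 had the same order of AL and DR values. Gm6166 is 98.3% identical to Fabp5 over 409 bases, and Hmgcs1 is overlapped over 462 bases by the antisense gene Gm48342. Sqle, Lss, Cyp51 and Insig1 had no such partner of at least 95% identity over 300 bases. The entry of Lss extends past its annotated gene, however, and what that adds to its values was not tested.

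Most other enzymes of the pathway also had higher values under DR in liver and WAT. Of 13 further sterol enzymes with an entry of their own, among 15 on the list, 12 had higher values under DR in WT liver (median 0.62, beside 0.03 over all entries), with none significant. In KO liver 12 of 13 were higher (median 1.08 beside -0.03) and 1 was significant beside 0.611% of all entries, Nsdhl (7.13 FPKM under AL, 28.4 under DR, 2.00 ± 0.56, adjusted p of 0.0691, Wald test). Msmo1 and Fdps differed there by 1.93 and 1.95 without passing, and the exception was Ebp (-0.10), which acts late in the pathway. In WT WAT 12 of 13 were higher (median 1.39 beside -0.17), none significantly, the exception being Hsd17b7 (-0.99). In KO WAT 12 of 13 were higher (median 1.02 beside 0.01) and, beside 0.707% of all entries called, Acat2, whose product supplies acetoacetyl-CoA to the first steps, was significantly up-regulated (9.79 to 22.1 FPKM, 1.18 ± 0.31, adjusted p of 0.0267). With a t distribution neither Nsdhl nor Acat2 was called (adjusted p of 1.000 for both, over ranges from 1.52e-07 and 6.23e-09 to 1.000 across alternatives). That setting called 0.0655% of all entries in KO liver and 0.0257% in KO WAT. Nsdhl was also lost at an FDR of 5%. Brain and muscle had none significant, beside 0.224% to 1.4% of all entries. Their list medians for DR against AL were between -0.17 and 0.40, beside -0.08 to 0.03 over all entries.

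**Figure D4:**
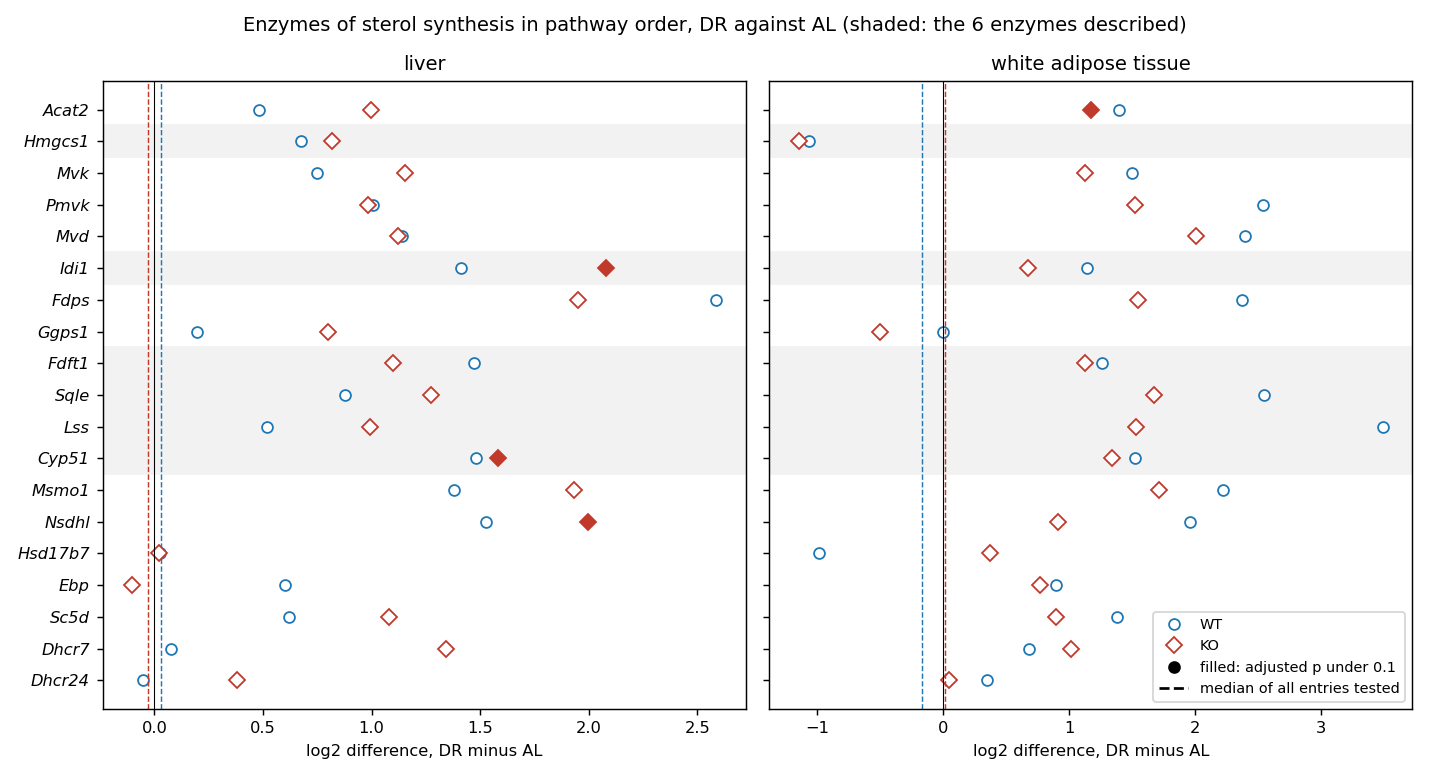
Log2 difference of FPKM, DR minus AL (horizontal axis), for 19 enzymes of sterol synthesis in pathway order in liver and WAT of WT (circles) and KO (diamonds) mice; filled symbols have an adjusted p under 0.1, dashed lines are the medians of all entries tested and shaded rows are the 6 enzymes described. Most symbols lie right of the dashed lines, with Hmgcs1 in WAT on the left at -1.06 and -1.15.

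Genes that sense and traffic sterols were described in the same way, without a test between the lists. Of the 14 with an entry of their own on a list of 16, Insig1 included, 8 were higher under DR in WT liver. Their median was 0.06, beside 0.03 over all entries, and none was called (0.236% of all). In KO liver 10 were higher (median 0.10 beside -0.03), and Insig1 was the 1 called, beside 0.611% of all entries. Srebf2, which encodes SREBP2, had an FPKM of 16.8 in WT AL, 12.0 in WT DR, 17.3 in KO AL and 17.7 in KO DR liver, and Scap had 41.1, 37.6, 43.2 and 34.6. Neither differed significantly between any of these groups. Insig2, which encodes a second protein that retains SCAP, had 137, 80.4, 245 and 57.8, the reverse of the order of Insig1. Its difference in KO liver was -2.08 ± 0.72 (adjusted p of 0.368, with an unadjusted p under 0.05, Wald test). In WAT 5 of 14 were higher under DR in WT (median -0.11, beside -0.17 over all entries) and 8 in KO mice (median 0.32 beside 0.01). None was significant, beside 0.57% and 0.707% of all entries.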

How the data were processed

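RNA of 43 libraries in 16 groups was sequenced by the authors, who trimmed the single-end reads with cutadapt 1.5 (per the submitters' processing notes) and sickle, aligned them to GRCm38 with BBMap and estimated expression with Cuffdiff 2.2.1, with its correction for reads that map to several places. The deposited values are FPKM per gene and group, scaled by the authors to transcript length and mapped fragments, with a 95% interval. The paper states that libraries were also normalised to one another by a geometric mean over samples. Replicates were pooled into 1 value per group. No counts were used here, so depth is unknown and the intervals cover what the authors' model covers.

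From these values a standard deviation was taken as the upper bound less the FPKM, divided by 2. Log2 ratios were tested by Wald's test (two-sided, normal distribution, SE by the delta method), with p-values adjusted after Benjamini and Hochberg over each comparison. The software was scipy 1.17.1, statsmodels 0.14.6, pandas 2.3.3 and numpy 2.4.6 under Python 3.11.15. Entries needed the status OK, an FPKM above 0 in all groups compared and a value of 1 or more in any of them. The code was tested on simulated data. Figures used matplotlib 3.10.9, and shared sequence between GENCODE transcripts was found with BLAST+ 2.17.0. Groups are those of the labels. The p-values rest on the authors' intervals alone.

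The genes named were the 7 members, Irs1, the genes of the lists and marker lists, and the 10 entries with the pattern most like the members. Other entries named for shared sequence were chosen after their values were seen. The members, lists and motifs were chosen with earlier results of these data known. Results for some genes of the lists are not reported here. Lists covered sterol enzymes, sterol sensing and uptake, sterol efflux, storage and bile acid synthesis, and fatty acid synthesis, with markers of hepatocytes, muscle, adipocytes, neurons, oligodendrocytes, astrocytes, epithelium, red blood cells and immune cells. Alternatives were an FDR of 5%, a smaller SE (divided by the square root of the number of libraries), a t distribution, intervals that do not overlap, a pseudocount of 1, no minimum FPKM, an FPKM of at least 5, centring on the median of all entries, and leaving out joined entries.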

Additional observations from a re-analysis of the deposited data

How the results depend on the processing

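The 204 member differences of 30 comparisons (without the added tests of diet effects between tissues, for which no alternative was run) were recomputed under 9 alternatives, which gave 1785 values. Of these 1716 kept their direction and their side of the threshold, 29 passed it newly, 33 lost it and 7 changed sign. All 7 changes of sign came with centring on the median, of differences that were not significant: in brain Fdft1 (-0.18), Sqle (-0.20) and Insig1 (-0.18) for KO DR against WT DR, and Idi1 (-0.13) and Cyp51 (-0.15) for KO AL against WT DR, and in WAT Idi1 (0.018) for KO AL against WT AL and Fdft1 (-0.064) for KO DR against WT DR. With the smaller SE more entries of every kind were called, and their share of all entries is given in brackets. In liver the number of members called was 2 for WT DR against WT AL (2.86%) and 5 for KO DR against KO AL (4.80%). It was 5 for KO AL against WT DR (9.99%) and 1 for the interaction (0.803%). It was 1 in muscle for KO DR against WT DR (10.7%). In WAT it was 1 for KO AL against WT AL (5.94%) and 2 for WT DR against WT AL (2.75%). It was 2 there for KO DR against KO AL (7.39%) and 1 for KO AL against WT DR (3.47%). Between tissues of WT AL mice it was 1 for liver against brain (38.7%), 4 for muscle against WAT (40.5%) and 4 for brain against WAT (43.7%). With the t distribution it was 0 in the 7 comparisons that had any call. No entry at all was called between tissues under that setting. In liver it called 0.0655% of all entries for KO DR against KO AL and 0.0803% for KO AL against WT DR. Intervals that do not overlap gave 1 in WAT for KO AL against WT AL (1.75% of entries), 0 for liver against WAT (16.6%) and 3 for muscle against brain (16.1%). Centring gave 1 in WAT for KO AL against WT AL (1.37%) and 1 for WT DR against WT AL (0.57%). An FDR of 5%, a pseudocount of 1, no minimum FPKM, an FPKM of at least 5 and leaving out joined entries kept each count within 1.5 times. The smaller SE changes only how much spread is assumed. The t distribution keeps the SE and changes only the distribution that the ratio to the SE is compared with, set by the number of libraries. The group values do not show the spread per library. No paired analysis was possible because the table holds 1 value per group and none per library, and leaving out a replicate was not run for the same reason.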

Other observations

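Genes of fatty acid synthesis had higher values in WAT under DR and in KO AL than in WT AL. Of 14 on the list, all 14 were higher under DR in WT WAT (median 2.34, beside -0.17 over all entries), and Elovl6, which lengthens palmitate (3.44 FPKM under AL, 126 under DR, log2 difference 5.19 ± 0.80), Acly, which makes cytosolic acetyl-CoA (38.4 and 748, 4.28 ± 1.04), and Acss2 (15.9 and 229, 3.85 ± 1.10) were significantly up-regulated (adjusted p of 1.19e-07, 0.0106 and 0.0860, Wald test), in a comparison in which 0.57% of all entries were called. All 14 were also higher in KO AL than in WT AL WAT (median 0.96), where Elovl6 (4.10 ± 0.47) and Thrsp (1.79 ± 0.46) were significant beside 1.29% of all entries, and 13 of 14 were higher under DR in KO WAT (median 1.07), none significantly. Both comparisons against WT AL share that group. In KO liver Thrsp, a gene known to follow lipogenesis, was up-regulated under DR from 18.3 to 324 FPKM (4.15 ± 0.68, adjusted p of 4.76e-07), and it was the 1 of 13 tested genes of the list called there (median 0.47, with 0.611% of all entries called). In skeletal muscle Elovl6 (2.71 ± 0.41) and Thrsp (1.95 ± 0.42) were significantly higher under DR in WT mice (1.4% of all entries called), in the group that also held liver transcripts, whose part in this was not tested. Both were also higher in KO AL than in WT AL muscle (1.62 ± 0.47 and 2.10 ± 0.42, with 0.681% called). In KO muscle Elovl6 was significantly higher under DR too (5.44 to 18.3 FPKM, adjusted p of 0.00288, Wald test, 0.5% called). The hepatocyte markers of KO DR muscle had a median of 0.0858% of their liver level, against 1.77% in WT DR muscle. Muscle also held adipocyte markers, with sums of 1861 FPKM in WT AL, 631 in WT DR, 2077 in KO AL and 2807 in KO DR. Lep did not follow the sums in KO (78.7 FPKM in WT AL, 9.24 in KO AL and 12.4 in KO DR). In WAT of KO AL and KO DR mice Thrsp had 523 and 1276 FPKM and Elovl6 had 58.9 and 160. The part of fat cells in the muscle differences of both genes was not tested.

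Of the genes of sterol efflux, storage and bile acid synthesis, 14 were tested in KO liver, 8 of them higher under DR (median 0.12, beside -0.03 over all entries). Cyp8b1, the sterol hydroxylase that sets the kind of bile acid made, was the 1 called, beside 0.611% of all entries. It was significantly down-regulated from 960 to 184 FPKM (-2.38 ± 0.58, adjusted p of 0.00946, Wald test). Cyp7a1, the rate-limiting enzyme of bile acid synthesis, had 27.0 FPKM in WT AL, 47.7 in WT DR, 21.7 in KO AL and 51.1 in KO DR liver. None of the 13 tested in WT liver was significant under DR (median -0.02, beside 0.03 over all entries, of which 0.236% were called). With a t distribution none of the genes named in these paragraphs was called in any of these comparisons (adjusted p of 1.000 each), and in WAT 0 of 14925 entries were called between WT DR and WT AL and 0 of 15481 between KO AL and WT AL. With intervals that do not overlap as the rule, Elovl6, Acly and Acss2 were not called between WT DR and WT AL in WAT, and Acss2 was also lost at an FDR of 5% and without a minimum FPKM. Over the alternatives the lowest adjusted p was 6.70e-17 for Elovl6, 1.53e-06 for Acly and 1.35e-04 for Acss2 there, and 2.50e-23 for Thrsp and 2.74e-10 for Cyp8b1 in KO liver.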
